A study of Mus musculus with 6 samples.

Results

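The genes described here are 6 transcription factor genes tied to the identity of glucagon-producing alpha cells: Irx1, Irx2, Pou3f4, Etv1, Foxa1 and Foxa2. They were chosen by name, as regulators known from alpha cells, and all 6 were found among the 55536 genes of the deposited count table. Polyadenylated RNA of whole pancreatic islets was sequenced in 6 libraries, 3 for each of 2 genotypes. Control mice were Klf4+/+;Gcg-iCre, and knockout mice were Klf4fl/fl;Gcg-iCre. Both groups thus carried the Gcg-iCre driver, in which the glucagon gene directs Cre recombinase to alpha cells, and the design text gives the strain as C57B1/6J. Neither the age nor the sex of the mice is given in the labels used here. Beta, delta and non-endocrine cells of the knockout islets were not targeted by the driver, and their RNA was measured together with that of the alpha cells.

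Alpha cells are a minority of mouse islet cells and secrete glucagon when blood glucose is low. Their identity rests on a set of DNA-binding proteins that switch on the glucagon gene and hold back the programmes of neighbouring endocrine cells. IRX1 and IRX2 are Iroquois homeodomain proteins, and in islets their genes are used as markers of alpha cells. POU3F4, also called BRN4, is a POU-homeodomain protein that binds the glucagon promoter. ETV1 is an ETS-family factor, and FOXA1 and FOXA2 are forkhead proteins that can open closed chromatin, activate the glucagon gene and also act in other endoderm-derived cells. KLF4 is a zinc-finger protein of the Kruppel-like family, whose members bind DNA boxes with the letters CACCC.

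Irx2 was the 1 gene of the 6 that passed the threshold in the comparison of genotypes: it fell by 26.9% in the knockout libraries, in a comparison that called 2.19% of all genes given an adjusted p-value. The Irx2 call was lost in 6 of 14 alternative fits, edgeR among them. Irx1, its neighbour on chromosome 13, was at a change of -22.5% without passing, and Etv1 at -18.0% without passing. Foxa2, the most abundant of the 6 per unit of length, differed by 2.7% and had the narrowest spread. Pou3f4 and Foxa1 had low levels and group ranges that overlapped widely.

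The start region of Irx2, the gene that passed, is shown beside the most upstream RefSeq start of Foxa2, the abundant gene with the smallest change. Sequences are from RefSeq promoter windows on GRCm38.p6, which held 5 of the 6 genes in 8 windows. The 250 bases before the start are given 5′ to 3′ on the strand of the gene, and capitals mark the letters CACCC or their complement GGGTG.
Irx2, chr13:72628570-72628819, plus strand: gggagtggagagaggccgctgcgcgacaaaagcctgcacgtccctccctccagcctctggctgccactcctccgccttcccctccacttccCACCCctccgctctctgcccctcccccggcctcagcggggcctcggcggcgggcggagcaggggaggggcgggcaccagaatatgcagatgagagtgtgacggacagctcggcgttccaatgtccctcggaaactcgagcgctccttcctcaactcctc
Foxa2, chr2:148046970-148047219, minus strand: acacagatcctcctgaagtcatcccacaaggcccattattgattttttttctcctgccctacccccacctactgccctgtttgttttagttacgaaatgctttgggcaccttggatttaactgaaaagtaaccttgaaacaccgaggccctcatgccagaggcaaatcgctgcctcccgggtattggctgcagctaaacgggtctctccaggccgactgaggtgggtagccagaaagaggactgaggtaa
The Irx2 window held 1 CACCC, which began 159 bases before the start, and the Foxa2 window shown held none on either strand. The 2 other Foxa2 windows, at starts further downstream, held 2 GGGTG each. CACCC or GGGTG was present in 6 of the 8 windows of these genes, and in 52.0% of all 32851 windows of the same length. The letters are a description of the sequence and are no evidence that a factor binds there, or fails to bind.

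The libraries held 101277200 to 110243918 counts. Klf4 itself was between 2015 and 3148 normalized counts (counts divided by the DESeq2 size factor of the library) in the controls and between 2277 and 2540 in the knockouts. It did not pass (log2 fold change -0.17, DESeq2 adjusted p = 0.774), except without control replicate 3, its lowest control (-0.34, adjusted p = 0.00568). Without control replicate 1, its highest control, the log2 fold change was -0.038 (adjusted p = 0.964). Klf4 thus gives no clear check of the genotype labels. Xist, the RNA of the inactive X chromosome, lay between 77938 and 108105 normalized counts in the controls and between 12.4 and 30.2 in the knockouts. The Y-linked gene Ddx3y had 0 counts in all 3 controls and 5599 to 6265 normalized counts in the knockouts. Sex-linked transcripts therefore followed the genotype label in all 6 libraries, and sex and genotype cannot be told apart in any difference given here.

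Non-endocrine transcripts also differed between the groups. On the first principal component (54% of the variance), knockout replicate 1 stood apart at 62.5, with knockout replicates 2 and 3 at 20.2 and -7.0 and the controls between -25.8 and -24.3. The summed level of 7 acinar cell markers ran from 404100 to 809400 normalized counts in the controls and from 1017000 to 1450000 in the knockouts, and 1 of the 7, Ptf1a, passed upward. Of 7 mesenchymal markers 5 passed upward (Col1a1, Col1a2, Col3a1, Pdgfra and Dcn), with sums of 52230 to 67810 and of 96030 to 103000, while Acta2, a smooth muscle actin gene, was at a log2 fold change of -0.29 with every knockout below every control (DESeq2 adjusted p = 0.168). Of 7 duct markers Muc1 and Krt7 passed upward, with sums of 29130 to 32640 and of 34930 to 39430, most of it Krt7, while Cftr and Sox9 had negative log2 fold changes with overlapping ranges (-0.51 and -0.11, DESeq2 adjusted p = 0.787 and 0.886). Of 7 immune markers Cd68 passed upward, with sums of 5462 to 5997 and of 5891 to 7187. The lymphocyte genes Cd79a (log2 fold change -0.23, DESeq2 adjusted p = 0.188) and Cd3e (0 to 26.9 normalized counts, no adjusted p-value) were lower in every knockout than in every control; they, Acta2, Cftr and Sox9 were chosen for mention after their values were seen. Of 6 hepatocyte genes, Apoa1, Ahsg and Tat passed upward. The summed level of all 6 was 3191 to 3603 in the controls and 3707 to 80510 in the knockouts. Most of the control sum was Tat, at 2931 to 3227 normalized counts. Most of the highest knockout sum, that of replicate 1, was Alb, at 51331. No marker of these lists was at 0 in all libraries. Without knockout replicate 1, none of these 3 hepatocyte genes passed in DESeq2 (adjusted p = 0.821, 0.208 and 0.285). Apoa1 also lost its call without control replicate 1 (0.129) or 2 (0.205), and Tat without any of the controls (0.142 to 0.237) or knockout replicate 2 (0.0816). In edgeR, 3 of the 7 mesenchymal markers passed and no marker of the other 4 lists, where 2 to 7 a list had an unadjusted p under 0.05. Of the DESeq2 calls, those of the 5 mesenchymal markers and of Muc1 held in every fit that left out a library, while Ptf1a, Krt7 and Cd68 lost theirs in 3 to 4 of these 6 fits (Ptf1a without any of the knockouts; Krt7 and Cd68 without control replicate 1 or 2 or knockout replicate 1 or 3). The part of these cells in the results below was not tested.

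The genes differed in abundance by several orders of magnitude. To compare them, counts were divided by the length of the merged exons and scaled to the same total in each library (TPM, transcripts per 1e6). Foxa2 was highest, at 97.8 to 103 TPM over the 6 libraries, rank 680 of 25210 genes with at least 10 counts in total. Irx2 lay between 21.5 and 35.8 TPM, Irx1 between 19.9 and 30.2 TPM and Etv1 between 16.9 and 26.1 TPM. These ranges overlapped, but within each of the 6 libraries Irx2 was above Irx1, and Irx1 above Etv1. That order rests on the merged exon lengths of Irx2, Irx1 and Etv1, which were 3282, 2620 and 13296 bases. Pou3f4 was lower, at 1.86 to 3.70 TPM, below every value of those 4 genes. Foxa1 was lowest, at 0.0431 to 0.237 TPM, rank 20934 of 25210. Its 6 raw counts were 22, 24, 6, 36, 12 and 8, all above the floor of 3 counts (0.0272 to 0.0296 CPM). All 6 are even numbers, as most low counts of the table are, and with counts halved the lowest would be at the floor.

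**Figure D1:**
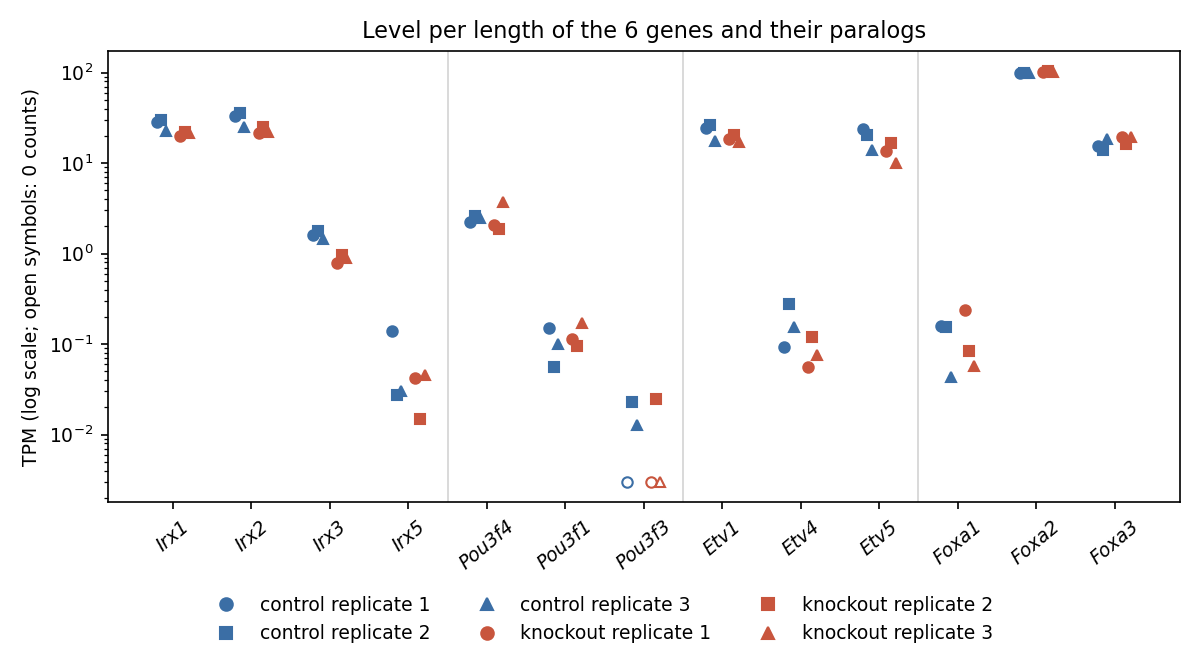
Level per length (TPM, log axis) of the 6 genes and of their measured paralogs in each library, with control libraries in blue and knockout libraries in red; open symbols stand for 0 counts and are drawn at an arbitrary low position. Foxa2 sits near 100.4 TPM in all 6 libraries, Irx1, Irx2 and Etv1 lie between 16.9 and 35.8 TPM, and Foxa1 reaches at most 0.237 TPM.

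The comparison of genotypes was fitted across all genes. In DESeq2, 2.19% of the 17797 genes given an adjusted p-value passed an adjusted p of 0.05, 0.657% in the lower and 1.53% in the higher direction; edgeR called 0.115% of 25210 genes. An unadjusted p under 0.05 was given to 9.03% of genes by DESeq2 and to 9.48% by edgeR. Of the 6 genes, 5 were given an adjusted p-value (Foxa1 was too low), and 1 of these, Irx2, passed, in the lower direction. Their median log2 fold change was -0.12, against -0.006 over all genes tested. The control and knockout ranges were separate for 1 of the 6, Irx1, while 18.0% of the 15811 genes with a mean of at least 50 normalized counts had separate ranges. Those separate with the knockouts lower, as Irx1 was, made up 8.54% of the 15811.

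Irx2 (ENSMUSG00000001504, chromosome 13, 72628820 to 72634198, plus strand, GRCm38) was at 4460, 5285 and 3649 normalized counts in the 3 controls, in order of replicate number. In the 3 knockouts, in the same order, it was at 3049, 3676 and 3068. The highest knockout library, replicate 2, lay just above the lowest control library, replicate 3, and the other 2 knockout libraries lay below all controls. The mean ± SD over 3 libraries was 4465 ± 818 in controls and 3264 ± 357 in knockouts, with a log2 fold change of -0.45 (SE 0.13) and a DESeq2 adjusted p of 0.0382. The 95% interval of the change ran from -39.1% to -12.3%. The call was lost in the edgeR quasi-likelihood test (adjusted p = 0.331), in DESeq2 with no independent filtering (0.0528) and without control replicate 1 (0.149), control replicate 2 (0.356), knockout replicate 1 (0.41) or knockout replicate 3 (0.287). In whole islets, fewer alpha cells and less RNA per alpha cell cannot be told apart, here and in every result below.

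Irx1 (ENSMUSG00000060969, chromosome 13, 71957921 to 71963723, minus strand) lies 665 kb from Irx2 in the same Iroquois cluster. It was at 3085, 3552 and 2643 normalized counts in the controls and at 2247, 2579 and 2367 in the knockouts. Every knockout library was below every control library, with replicate 2 the highest of each group, as for Irx2. The mean ± SD over 3 libraries was 3093 ± 455 in controls and 2398 ± 168 in knockouts. The log2 fold change of -0.37 ± 0.12 (SE) did not pass in DESeq2 (adjusted p = 0.0706). It passed without control replicate 3, the lowest control, at -0.47 (adjusted p = 0.000336). Without control replicate 2, the highest control, the log2 fold change was -0.26 (adjusted p = 0.403).

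Etv1 (ENSMUSG00000004151, chromosome 12, 38779380 to 38870484, plus strand) was at 13292, 15625 and 10310 normalized counts in the controls. The knockouts were at 10619, 12035 and 9519. The ranges overlapped, since control replicate 3 lay below knockout replicates 1 and 2, and again replicate 2 was the highest of each group. The log2 fold change was -0.29 ± 0.14 (SE) and did not pass (DESeq2 adjusted p = 0.385), with a 95% interval of the change from -32.0% to -1.09%. Single controls moved this value: without control replicate 3 the log2 fold change was -0.43 (adjusted p = 0.00445), and without control replicate 2 it was -0.14 (adjusted p = 0.915).

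Foxa2 (ENSMUSG00000037025, chromosome 2, 148042877 to 148046969, minus strand) was at 9644, 10656 and 10282 normalized counts in the controls and at 10356, 10893 and 10161 in the knockouts. The libraries were interleaved, and the SD was 5.02% of the mean in controls and 3.62% in knockouts. The log2 fold change was 0.04 ± 0.07 (SE, DESeq2 adjusted p = 0.937). The 95% interval of the change ran from -6.93% to 13.3%, so a decrease of the size measured for Irx2 in whole-islet RNA lay outside it. A change of Foxa2 within the alpha cells alone was not measured, since RNA of the untargeted cells was counted too.

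Pou3f4 (ENSMUSG00000056854, chromosome X, 110814280 to 110817207, plus strand) is the 1 X-linked gene of the 6. Its normalized counts were 267, 339 and 322 in the controls and 261, 242 and 460 in the knockouts. Knockout replicate 3 was the highest of all 6 libraries, and the other knockouts were the lowest. The log2 fold change was 0.05 ± 0.25 (SE, DESeq2 adjusted p = 0.979). Its 95% interval ran from -26.5% to 46.4%, and without knockout replicate 3 the log2 fold change was -0.30 (adjusted p = 0.822).

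Foxa1 (ENSMUSG00000035451, chromosome 12, 57540628 to 57546916, minus strand) was at 21.8, 23.0 and 6.37 normalized counts in the controls and at 34.0, 12.4 and 7.98 in the knockouts. Its highest library was knockout replicate 1, which also held the highest level of the hepatocyte gene Alb, at 51331 normalized counts against 103 to 213 in the controls. In knockout replicate 2, Alb was at 1743 normalized counts and Foxa1 below control replicates 1 and 2. A link between Foxa1 and Alb was not tested. The log2 fold change of 0.09 ± 0.80 (SE) had a 95% interval from -64.3% to 215%, so neither a fall nor a rise within these bounds was resolved. None of the 6 genes overlaps another annotated gene, so no antisense partner shares their annotated span.

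**Figure D2:**
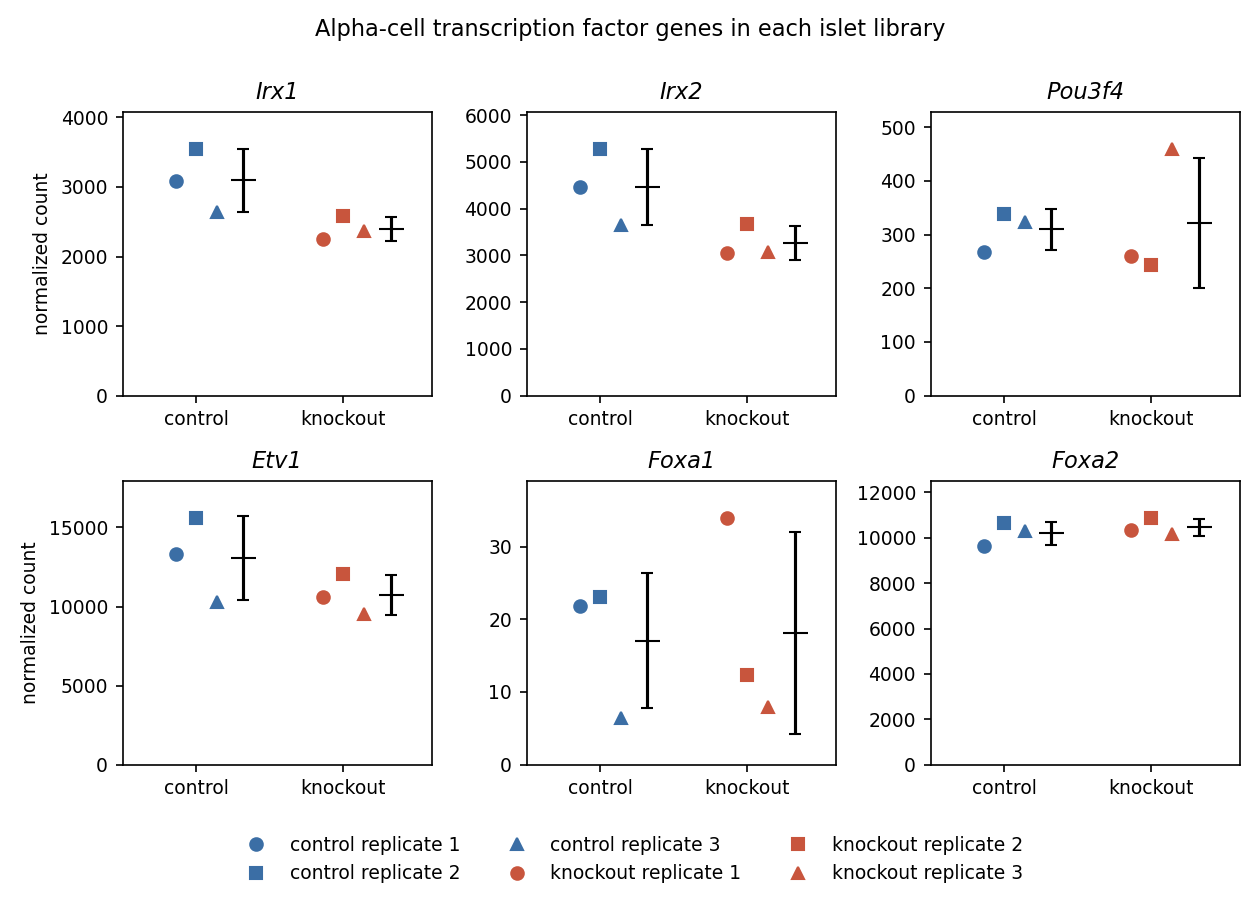
Normalized counts of the 6 genes in each library (y axes start at 0), with control libraries in blue and knockout libraries in red; the black bar beside each group is the mean ± SD of its 3 libraries. Irx1 values are separate between the groups, Irx2 and Etv1 values overlap at control replicate 3, and Foxa2 values lie together between 9644 and 10893.

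**Figure D3:**
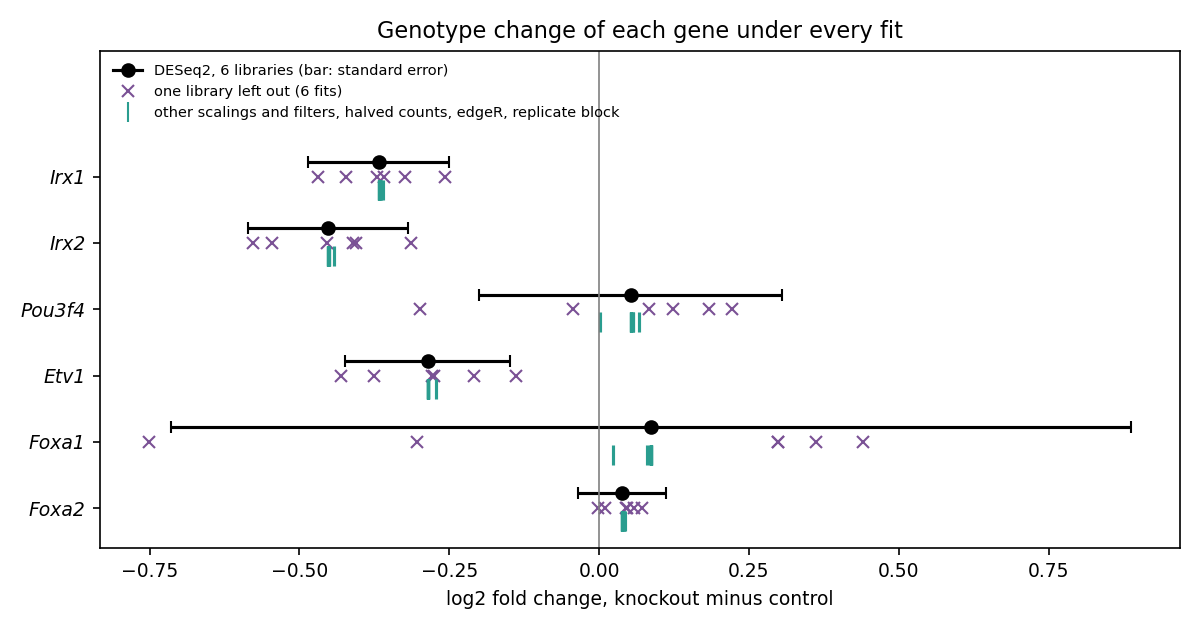
Log2 fold change of each gene (x axis, knockout minus control) in DESeq2 with its standard error, in the 6 fits that leave out a library and under the other alternatives. Irx1, Irx2 and Etv1 stay below 0 in every fit, from -0.58 to -0.14, while Pou3f4 and Foxa1 lie on both sides of 0.

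Whether the genes changed to different extents was asked within libraries, as the log2 ratio of one gene to another (log2 of the normalized count + 1), over all 15 pairs. For 3 of the 15 pairs the control and knockout ratios were separate, against 18.3% of all pairs of genes with a mean of at least 50 normalized counts, so the count of pairs is near the background. Irx2 relative to Foxa2 was -1.21 ± 0.26 in the 3 controls and -1.69 ± 0.11 in the 3 knockouts (mean ± SD), which differ by -0.48. Irx1 relative to Foxa2 differed by -0.40, and Irx2 relative to Etv1 by -0.17. Each gave p = 0.1 in the exact two-sided permutation test, the smallest that 3 against 3 libraries allow, and 0.5 after Benjamini-Hochberg adjustment over the 15 pairs. Irx1 relative to Irx2 was -0.52 ± 0.05 and -0.44 ± 0.07, with overlapping ranges (exact permutation p = 0.2, adjusted 0.75). The Irx1 to Irx2 ratio had the smallest control SD of the pairs apart from Irx2 to Etv1, at 0.04.

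The alpha-cell genes themselves were compared next. Of the 7 alpha-cell markers, Gcg, Ttr and Slc38a5 fell and none rose, with a median log2 fold change of -0.41. Gcg, the glucagon gene, was at 4221950, 5636520 and 3856330 normalized counts in the controls and at 2855550, 3528730 and 2943190 in the knockouts, highest in replicate 2 and lowest in control replicate 3 among controls, as Irx1, Irx2 and Etv1 were. Its log2 fold change was -0.56 ± 0.13 (SE, DESeq2 adjusted p = 0.00332), but the call was lost in edgeR (adjusted p = 0.402) and without knockout replicate 1 (0.144) or 3 (0.0826). Slc38a5, an amino acid transporter gene, was at 2932 ± 422 and 2008 ± 284 normalized counts (SD, n = 3 each), and Ttr, which encodes the carrier protein transthyretin, at 175702 ± 31290 and 118430 ± 20510. Neither passed in edgeR (adjusted p = 0.218 and 0.315). Without control replicate 2 or knockout replicate 1 or 3, neither passed in DESeq2, and Ttr did not pass without control replicate 3. Gc and Slc7a2, also markers of alpha cells, were level, at log2 fold changes of 0.003 and 0.035.

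Set against Gcg of the same library, Irx2 had a log2 ratio of -10.00 ± 0.10 in the 3 controls and -9.89 ± 0.02 in the 3 knockouts (mean ± SD). The difference of 0.10 was within overlapping ranges (exact permutation p = 0.3, adjusted over the 6 genes 0.36). Irx1 relative to Gcg was higher by 0.18, Etv1 by 0.27 and Foxa2 by 0.58 in the knockouts, each with separate ranges and p = 0.1 (exact permutation, adjusted 0.2). Gcg itself was lower in the knockouts, and 62.4% of all genes with a mean of at least 50 normalized counts had separate ratios to Gcg, 62.3% with the knockouts higher, so these separations do not set the 3 genes apart. Against the mean of the 7 alpha-cell markers, the differences were -0.05 for Irx1, -0.13 for Irx2 and 0.04 for Etv1, all with overlapping ranges (exact permutation p = 0.9, 0.4 and 1). Foxa2 was higher by 0.35 there, with separate ranges; of all such genes, 36.9% had separate ratios to the list, 36.6% with the knockouts higher. The sign for Irx1 and Irx2 thus turned with the reference, and the shift of Foxa2 did not.

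**Figure D4:**
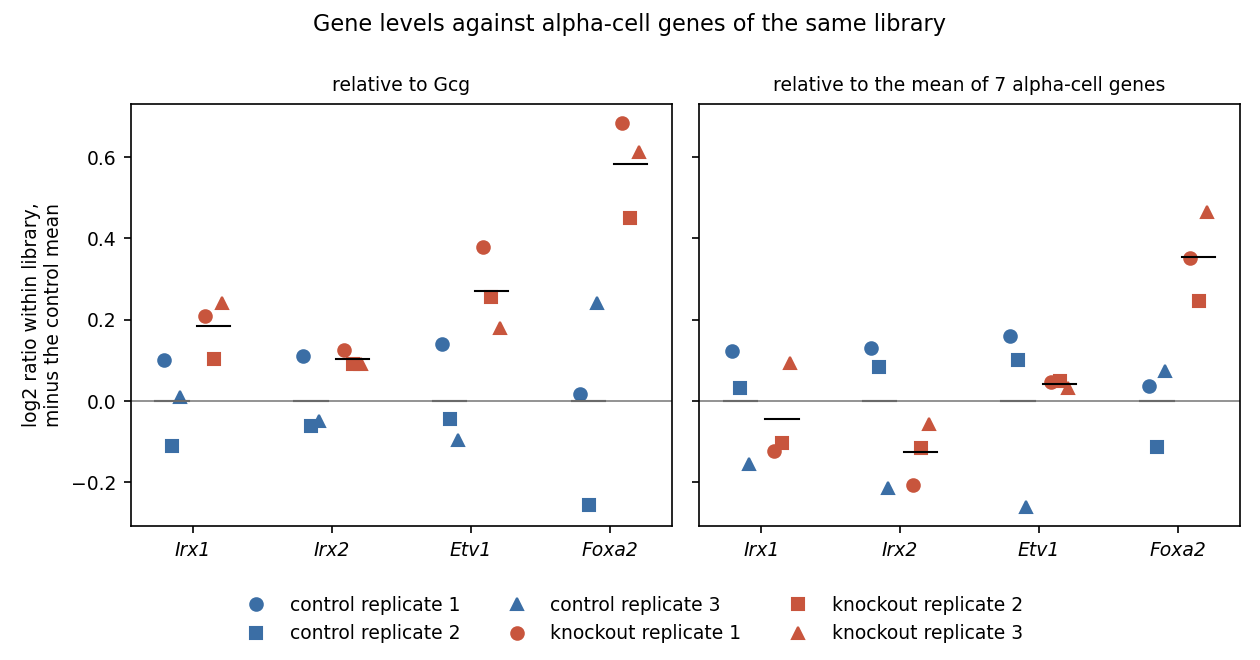
Log2 ratio of Irx1, Irx2, Etv1 and Foxa2 to Gcg (left) and to the mean of 7 alpha-cell markers (right) within each library, drawn relative to the control mean; black lines are group means. Foxa2 is higher in the 3 knockout libraries with both references (0.58 and 0.35), and Irx2 stays within 0.13 of the control mean on average.

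Paralogs of the 6 genes were examined as a list of 10. Irx6 and Pou3f2 had 0 counts in every library, Irx4, the third gene of the chromosome 13 cluster, had 0 to 4 counts, and 3 of the 7 paralogs fitted were given an adjusted p-value. Of these 3, Irx3 passed, in the lower direction. Irx3 (chromosome 8) was at 183, 221 and 178 normalized counts in the controls and at 92.6, 120 and 104 in the knockouts, with every knockout below every control. Its log2 fold change was -0.88 ± 0.24 (SE, DESeq2 adjusted p = 0.016), and per length its level, 1.25 TPM on average, was far under those of Irx1 and Irx2. The Irx3 call was lost in edgeR (adjusted p = 0.218), with counts halved (0.0552) and without control replicate 2 (0.136), knockout replicate 1 (0.181) or knockout replicate 3 (0.081). Foxa3, the third forkhead gene of the family, lay between 13.9 and 19.5 TPM, above Foxa1 and below Foxa2 in every library, and did not pass (log2 fold change 0.21 ± 0.13 SE, DESeq2 adjusted p = 0.579), except without control replicate 3 (0.34, adjusted p = 0.0207). Etv5, close kin of Etv1, lay between 9.91 and 24.0 TPM, and its log2 fold change was -0.51 ± 0.30 (SE, DESeq2 adjusted p = 0.549). Without knockout replicate 2 it was -0.72 (adjusted p = 0.0478), and without knockout replicate 3 it was -0.32 (adjusted p = 0.73).

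A list of 16 further islet transcription factor genes gave no call in DESeq2, with 3 of 16 at an unadjusted p under 0.05, and none in edgeR, with 2 of 16. Their median log2 fold change was -0.005, against -0.006 over all genes tested, and their summed level was 200700 to 213300 normalized counts in controls and 202900 to 209700 in knockouts. Foxp2 had the largest value, at 0.50 ± 0.22 (SE, adjusted p = 0.287; 0.73 and 0.0208 without knockout replicate 3), and Foxp1 the smallest, at -0.001 ± 0.08 in DESeq2 and 0.0019 in edgeR and with TMM factors. Rfx6, needed for endocrine cell formation, was the 1 gene of the 16 with separate ranges, at 12498 to 14393 normalized counts in controls and 14675 to 17193 in knockouts (DESeq2 adjusted p = 0.107, or 0.0218 without knockout replicate 2). Isl1, an endocrine LIM-homeodomain factor gene, was at -0.25 with overlapping ranges (DESeq2 adjusted p = 0.231). Rfx6 and Isl1 were chosen for mention after their values were seen.

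Genes known to depend on FOXA factors in islets were then listed, since Foxa2 was level in whole-islet RNA. Of 6 (Pdx1, Kcnj11, Abcc8, Hadh, Gcg and Pcsk2), Gcg passed, in the lower direction, and none passed upward. Their median log2 fold change was -0.07. Kcnj11 and Abcc8, which encode the subunits of the beta- and alpha-cell ATP-sensitive potassium channel, were at log2 fold changes of 0.08 and 0.12, Abcc8 with every knockout above every control (DESeq2 adjusted p = 0.422), and Hadh, a fatty acid oxidation enzyme gene, was at -0.002. Pdx1, a beta-cell transcription factor gene, was at -0.13 with overlapping ranges, and Pcsk2, a prohormone convertase gene, at -0.14 with every knockout below every control (DESeq2 adjusted p = 0.63 and 0.477).

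Markers of the other endocrine cells were followed in the same libraries. Of 9 beta-cell markers Nkx6-1, a beta-cell transcription factor gene, fell (log2 fold change -0.23 ± 0.07 SE, DESeq2 adjusted p = 0.0314), and 4 of the 9 had an unadjusted p under 0.05 (3 in edgeR), all 4 with negative values. The other 3 were Mafa (-0.31), Slc2a2 (-0.24) and Ucn3 (-0.16), named after their values were seen, at DESeq2 adjusted p = 0.107, 0.238 and 0.375. The Nkx6-1 call was lost in edgeR (0.361), with total-count scaling (0.0901), with counts halved (0.0515) and without control replicate 1 (0.0885) or 2 (0.11) or knockout replicate 1 (0.348) or 3 (0.101). Iapp (0.16), G6pc2 (0.10), Ins1 (0.08) and Ins2 (0.02) had positive values, and the median of the 9 was -0.13. The summed level of the 9, mostly Ins2 and Ins1, was 18650000 to 21750000 normalized counts in controls and 20880000 to 21190000 in knockouts. None of 5 delta-cell markers passed in DESeq2 or edgeR (2 at an unadjusted p under 0.05 in each), with Ghsr at -0.39 and Hhex at 0.07. None of the 2 markers of pancreatic polypeptide cells passed in either tool (0 at an unadjusted p under 0.05), with Pyy at -0.35 and Ppy at -0.10. Pyy ranged from -0.457 to -0.155 when a library was left out. None of 5 endothelial markers (Pecam1 0.12, Plvap 0.08) and none of 5 neural and glial markers (Ncam2 -0.08) passed in either tool, with 0 of each list at an unadjusted p under 0.05.

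Beside Irx2, 255 bases upstream on the opposite strand, the annotation holds the long non-coding RNA gene Gm20554 (chromosome 13, 72626213 to 72628564), the 1 gene within 1000 bases of any of the 6. It was chosen for its position after the data were seen. Gm20554 was at 739, 814 and 465 normalized counts in the controls and at 608, 722 and 515 in the knockouts, with overlapping ranges (log2 fold change -0.13 ± 0.21 SE, DESeq2 adjusted p = 0.92). Control replicate 3 was the lowest of all 6 libraries for Gm20554.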

How the data were processed

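Counts of reads per gene, not normalized, were deposited by the authors in 1 table of all 6 libraries. FastQC, STAR, featureCounts, DESeq2 and the build mm10 are named in the submitters' processing notes, and the file name records cutadapt; versions and the strand setting are not given in the sources used here. All 55536 identifiers and symbols matched GENCODE M21 (GRCm38), which supplied coordinates and exon lengths; 0 columns were left unused. Of the deposited counts from 1 to 10, 86.6% were even, against 57.1% of those from 501 to 5000, so low counts are not counts of independent molecules. Floors cover counting error only.

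DESeq2 1.42.0 in R 4.3.3, named with this design in the series' text, compared knockout with control (genotype only, at least 10 counts in total, Wald test, Benjamini-Hochberg over all genes, threshold 0.05). Alternatives were edgeR 4.0.16, TMM factors, total-count scaling, 2 filters, no independent filtering, a threshold of 0.1, a block for the replicate number, leaving out each library and, added after the data were seen, counts halved. Counts were simulated from these libraries in a single run, with the spread estimated by edgeR. Of 199 DESeq2 calls 57 were false (28.6%), and of 113 edgeR calls 13 (11.5%), both more than the threshold allows. The spread came from edgeR, so the tools are not ranked by these shares. Libraries of a group differed by 40.0 to 120 times the sampling noise (chi-square per degree of freedom) and were counted as separate; nothing in the labels says they came from separate mice, so p-values may measure technical spread. The members and gene lists were chosen with earlier results of these data known. Named were the 6 genes, Klf4, Gcg, the sex check genes, listed genes past the threshold and, where none passed, the largest and smallest change of a list (1 such gene is not reported here); others are marked as chosen later or serve to fill a list's range. For each of the 6 the 3 genes with the highest Pearson correlation were also sought, among those with a mean of at least 500 normalized counts.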

Additional observations from a re-analysis of the deposited data

How the results depend on the processing

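Irx1, Irx2 and Etv1 were negative under every alternative run. Over 14 alternatives other than the replicate block, Irx2 passed in 8 (adjusted p 6.64e-05 to 0.41), Irx1 in 2 (0.000336 to 0.513) and Etv1 in 1 (0.00445 to 0.915). The threshold of 0.1 is among the 14 and is the main fit read again, and both Irx2 and Irx1 passed there. Of the 6 genes, 1 passed in DESeq2; edgeR gave 0 (2 at an unadjusted p under 0.05, against 3 in DESeq2), no independent filtering 0 (Irx2 at 0.0528), a threshold of 0.1 gave 2, and leaving out a library gave 0 to 3. Across all genes, 389 passed, against 29 in edgeR, 608 at a threshold of 0.1 and 153 (without knockout replicate 1) to 952 (without control replicate 3) when a library was left out. With the replicate number as a block, 405 genes passed and 3 of the 6 (Irx1 adjusted p = 0.0349, Irx2 0.000862, Etv1 0.0453), as did Etv5 (0.000464) and Pyy (0.00653), while Irx3 (0.102), Nkx6-1 (0.0573), Ptf1a (0.0571), Cd68 (0.154) and Apoa1 (0.385) lost their calls; same-numbered libraries did not deviate together (r = -0.0482, -0.0587 and 0.0105 over 15811 genes), so the numbers are not taken as pairs. Separate ratios to Gcg went from 3 of the genes to 1 against the alpha-cell list, and from 3 to 4 when a library was left out. Separate pairs ran from 3 to 6. Groups with fewer libraries separate more readily, and no share over all genes or pairs was taken with a library left out, so higher counts there are not read as stronger separation. Promoter windows with CACCC or GGGTG went from 6 to 3 within 150 bases. Without one library, Pou3f4 ranged from -0.30 to 0.22, Foxa1 from -0.75 to 0.44, Foxa2 from -0.001 to 0.071, Hhex from -0.086 to 0.19, Ppy from -0.20 to 0.067, Ncam2 from -0.21 to 0.080 and Foxp1 from -0.059 to 0.067. Foxp1 was 0.0019 in edgeR and with TMM factors, 0.0031 with total-count scaling and 0.00021 under the stricter filter. Of 555 log2 fold changes of single genes under the alternatives, 457 stayed on their side of 0 and of the threshold, 69 lost a call, 12 gained one and 17 changed sign. Of 48 ratios to Gcg, 3 moved by more than 1 SD and 3 changed sign (Irx1 to -0.045 and Irx2 to -0.13 against the alpha-cell list, Foxa1 from 0.56 to -0.054 without knockout replicate 1). Why they moved was not tested.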

Other observations

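Across the 6 libraries, the profile of Irx2 and of Irx1 lay close to that of Gcg. Among 11326 genes with a mean of at least 500 normalized counts, Gcg ranked 9 in likeness to Irx1 and 9 in likeness to Irx2 (Pearson r = 0.982 for each, n = 6 libraries, log2 of the normalized count + 1). Irx1 was most like Khdrbs3, Mamld1 and Fscn1 (r = 0.996, 0.994 and 0.994), and Irx2 most like the pseudogene Rpl10-ps3, Dmrtc1a and Gm11478 (r = 0.996, 0.994 and 0.992). Etv1 was most like Lig4, Dnah11 and 2410004B18Rik (r = 0.996, 0.995 and 0.995), and Gcg ranked 282 for it, at r = 0.882. For Foxa2 and Pou3f4, Gcg ranked 4195 and 5969, at r = 0.0848 and -0.0472; Foxa2 was most like Egln2, Hba-a1 and Anapc16 (r = 0.971, 0.968 and 0.963) and Pou3f4 most like Rnf112, Lmnb2 and Erh (r = 0.993, 0.991 and 0.979). Foxa1, at 6 to 36 counts, was most like Gsap, Pbx2 and Ppox (r = 0.986, 0.983 and 0.98). With 6 libraries in 2 groups such values are descriptions: 2.0% of the genes compared had r over 0.9 with Irx2, and all points share the same libraries.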
